A study of Mus musculus with 13 samples.

Results

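The CXC chemokine genes Cxcl1, Cxcl2, Cxcl5, Cxcl10, Cxcl12, Cxcl14, Cxcl15 and Cxcl16, together with Ackr3, which encodes an atypical receptor for Cxcl12, were followed in bulk RNA-Seq of mouse embryonic fibroblasts (MEFs). These 9 genes were chosen by their symbols, matched to the identifiers of the expression files through the mouse annotation, out of 57010 genes listed, 27297 of them counted in some library. Wild-type MEFs numbered as mice 4, 5 and 6 were sequenced as untreated control MEFs, as senescent cells (SnCs) made with 2 μM etoposide, which damages DNA by blocking a topoisomerase, and as such SnCs given 100 μg/mL or 300 μg/mL of Fucoidan-FV, a sulfated sugar polymer from the brown seaweed Fucus vesiculosus, for 12 h. Per the study's methods the etoposide was given for 24 h and followed by 5 days of normal medium, and MEFs were grown from the embryos at 3% oxygen. All 3 groups of SnCs share the etoposide treatment, and the controls differ from the Fucoidan-FV groups in both treatments. Control mouse 5 had a pair of libraries, 5(1) and 5(2), whose counts were added, which gives 13 libraries and 3 mice per group.

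CXC chemokines are small secreted proteins that guide leukocytes through G protein-coupled receptors, and several are textbook members of the senescence-associated secretory phenotype (SASP), the set of factors that SnCs release. Those with the ELR tripeptide before their cysteines, among them Cxcl1, Cxcl2, Cxcl5 and Cxcl15, attract neutrophils. The receptor best known for this class is Cxcr2, and Cxcl10 is an interferon-induced ligand of Cxcr3 on T cells. Cxcl12 signals through Cxcr4 and is taken up by the scavenger Ackr3, Cxcl14 is produced by resting epithelial and stromal tissue, and Cxcl16 is made as a membrane protein whose receptor is Cxcr6.

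Libraries held 22782536 to 31278750 expected counts. The summed level of 9 fibroblast markers was 31850 to 53790 CPM (library-size-normalised read count with TMM factors, the unit of every level below unless TPM is named), whereas 5 neutrophil markers summed to at most 0.34 CPM, 5 endothelial markers to at most 3.70 CPM, 5 epithelial markers to at most 2.04 CPM and 8 macrophage markers to between 0.564 and 16.9 CPM. Of the 5 skeletal muscle markers, Acta1 alone passed the filter on low counts, and it made up nearly all of their sum. The highest group mean among the others was 0.327 CPM, for Myh3 in SnCs. The sum was 81.7 to 121 CPM in control MEFs and 74.6 to 92.9 CPM in SnCs. It was 13.7 to 51.4 CPM with 100 μg/mL and 18 to 43.1 CPM with 300 μg/mL. The part of these markers in the results was not tested. In bulk RNA, fewer cells of a type and less RNA per cell cannot be told apart. Genes with a single listed transcript were low in 4 libraries, namely control mouse 6, control 5(1), senescent mouse 5 and Fucoidan-FV 300 mouse 4, with median log2 deviations of -1.35, -1.09, -0.915 and -1.02 from the mean of all libraries over 974 such genes, against -0.229 to 1.10 in the other 9 libraries. Of the 9 genes, Ackr3 (96.4%) and Cxcl15 (100%) consist almost wholly of sequence found in a single transcript, and genes with a like share deviated in the same 4 libraries.

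Per length, Cxcl12 stood first and Cxcl14 second in each of the 4 groups. In untreated SnCs the level of Cxcl12 was 183 ± 20.7 TPM (length-normalised level, SD, n = 3) and that of Cxcl14 was 115 ± 29.6 TPM, and the ranges of these 2 genes did not overlap. All others were far lower in SnCs, with 2.72 ± 1.58 TPM for Ackr3, 1.96 ± 1.62 TPM for Cxcl16, 1.03 ± 0.760 TPM for Cxcl5 and at most 0.69 TPM in any senescent library for Cxcl1, Cxcl10, Cxcl15 and Cxcl2. Neighbours in this order from Ackr3 down to Cxcl15 overlapped in their ranges. With 100 μg/mL Fucoidan-FV the order was Cxcl12 (619 ± 348 TPM), Cxcl14 (153 ± 14.0 TPM), Cxcl5 (25.5 ± 17.8 TPM), Ackr3 (21.1 ± 7.86 TPM), Cxcl16 (6.00 ± 1.68 TPM) and Cxcl1 (1.57 ± 0.405 TPM), in which Cxcl5 and Ackr3 overlapped.

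**Figure D1:**
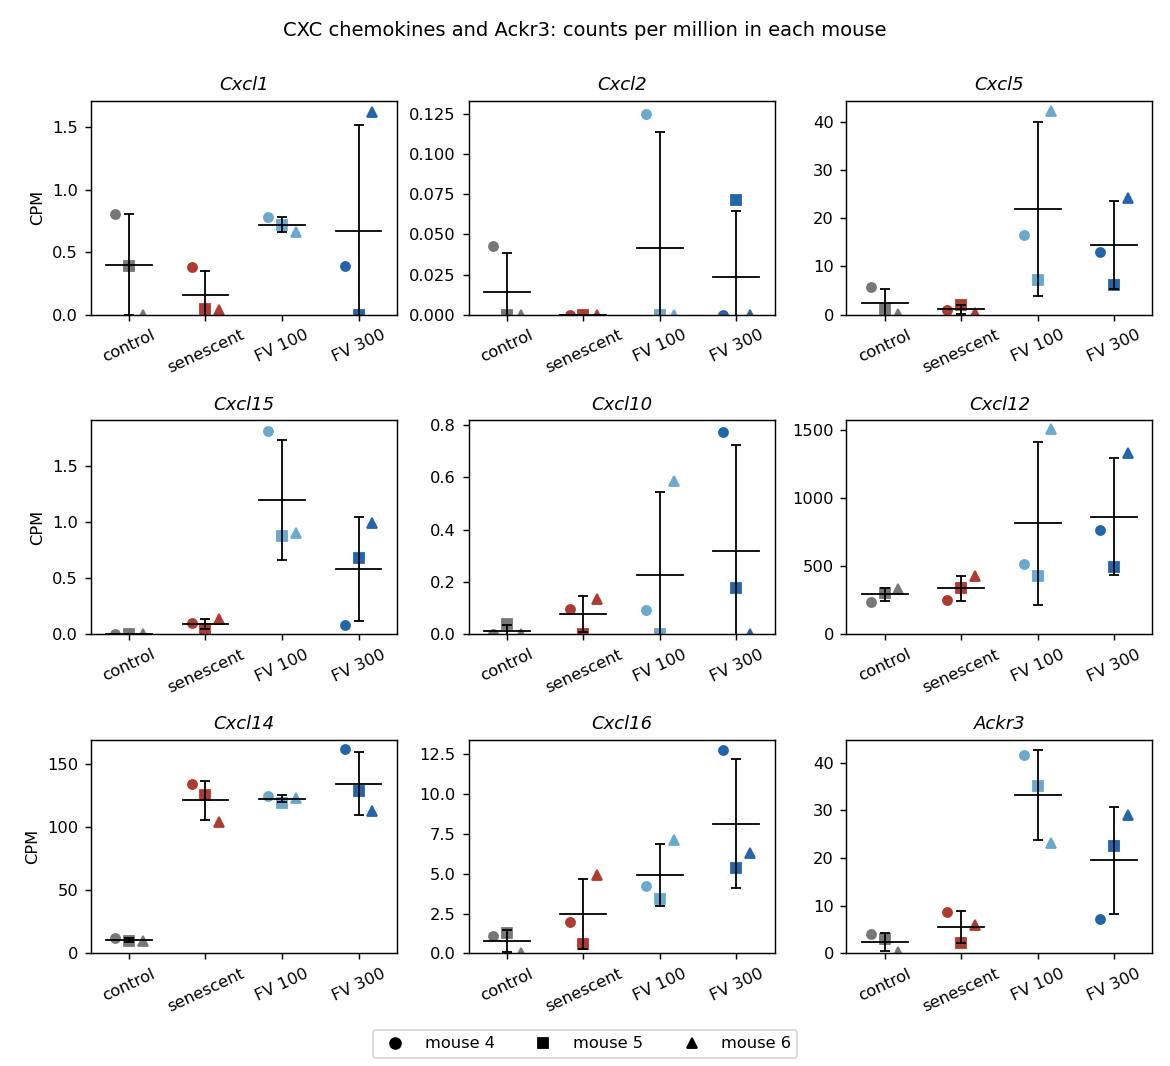
Normalised read counts (CPM, linear axis from 0, scaled separately per panel) of the 9 genes in control MEFs, SnCs and SnCs with 100 or 300 μg/mL Fucoidan-FV (FV 100, FV 300). Points are mice (symbol by mouse number), and lines and bars are the mean and SD of 3 mice. Cxcl14 rises from control MEFs to SnCs and stays at that level with Fucoidan-FV, while Cxcl5, Cxcl12 and Ackr3 are higher in most Fucoidan-FV samples than in untreated SnCs.

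Of the 9 genes, 7 passed the filter on low counts and were tested. Cxcl2, with 0 to 4 counts per library, and Cxcl10, with 0 to 20, were too low to test. Cxcl15 was at 0 in all control libraries and under 5 counts in all SnCs, so that it passed only through the Fucoidan-FV samples, and Cxcl1 passed, also through the Fucoidan-FV samples, with 0 to 39 counts per library.

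RefSeq (GRCm38.p6) promoter sequences were found for 7 of the 9 genes, and not for Cxcl5 and Cxcl16. The NF-κB consensus (GGG, purine, any base, any base, 2 pyrimidines, CC, searched on both strands, where overlapping matches count separately) matched 2 times within 250 bases before the start of Cxcl1, 2 times for Cxcl2 and 3 times for Cxcl10, and not in this window of Cxcl12, Cxcl14, Cxcl15 or Ackr3. Over all 32851 promoters of the table, 7.25% held a match in the same window. The interferon-response element (GAAA, any 2 bases, GAAA) matched in Cxcl10 and Cxcl14 and in 2.98% of all promoters. A match is a description of letters and not of a bound site. The 120 bases before the start are shown for the 3 genes with NF-κB matches and for the 2 most abundant members, 5′ to 3′ on the gene's strand, with NF-κB matches in capitals.
Cxcl1, chr5:90891125-90891244 (+): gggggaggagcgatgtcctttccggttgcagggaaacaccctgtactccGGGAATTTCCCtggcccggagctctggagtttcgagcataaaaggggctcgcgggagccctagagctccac
Cxcl2, chr5:90903779-90903898 (+): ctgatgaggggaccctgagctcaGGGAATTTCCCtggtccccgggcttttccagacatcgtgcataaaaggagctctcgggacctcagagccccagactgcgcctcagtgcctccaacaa
Cxcl10, chr5:92348890-92349009 (-): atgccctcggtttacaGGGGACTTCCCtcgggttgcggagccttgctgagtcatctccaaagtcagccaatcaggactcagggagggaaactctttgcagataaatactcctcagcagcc
Cxcl12, chr6:117168415-117168534 (+): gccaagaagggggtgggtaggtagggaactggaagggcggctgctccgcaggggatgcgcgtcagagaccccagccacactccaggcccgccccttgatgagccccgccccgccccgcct
Cxcl14, chr13:56296552-56296671 (-): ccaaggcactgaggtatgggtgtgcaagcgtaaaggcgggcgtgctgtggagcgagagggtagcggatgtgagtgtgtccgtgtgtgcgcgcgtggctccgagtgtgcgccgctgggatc

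Differentially expressed genes (DEGs) were called where edgeR's quasi-likelihood test gave an adjusted p under 0.05 and the difference passed 2-fold in either direction. Between SnCs and control MEFs, the comparison that asks what senescence changes, 1 of the 7 tested genes was a DEG, Cxcl14, while 4.47% of all tested genes were DEGs higher in SnCs and 8.42% in either direction. Values of SnCs lay above all control values without overlap for 2 of the 7, Cxcl14 and Cxcl15, and for 14.2% of all tested genes. Without Cxcl1 and Cxcl15, which passed the filter through the Fucoidan-FV samples, this held for 1 of 5. The median log2 fold change of the 7 was 1.18, against 0.07 over all tested genes. With 100 μg/mL Fucoidan-FV against untreated SnCs, the comparison that asks what the treatment changes, 1 of 7 was a DEG, Cxcl5, with 1.1% of all tested genes called higher and 2.69% in either direction. Of the 7, 4 had an unadjusted p under 0.05 (Cxcl5, Cxcl12, Cxcl15 and Ackr3), for which the share over all tested genes was not computed. DESeq2 called 4 of the 7 and 826 genes in all, where edgeR called 405. Cxcl1 and Cxcl15 entered the test through the Fucoidan-FV samples, so that their direction is no result. The other 5 had positive log2 fold changes with a median of 1.28, against -0.02 over all genes, and 2 of these 5 (Cxcl5 and Ackr3) lay above all untreated SnCs, as did 11.2% of all tested genes. With 300 μg/mL none of the 7 was a DEG by edgeR, where 1.64% of all tested genes were DEGs and 0.752% were DEGs in the higher direction. The same 4 had an unadjusted p under 0.05, Cxcl15 again among them. DESeq2 called 2 of the 7 (Cxcl5 and Cxcl12) and 641 genes in all, where edgeR called 246. There 3 (Cxcl5, Cxcl12 and Cxcl16) lay above all untreated SnCs, as did 9.41% of all tested genes, and the median of the 5 was 1.71 against 0 over all genes. Both doses were set against the same senescent libraries.

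**Figure D2:**
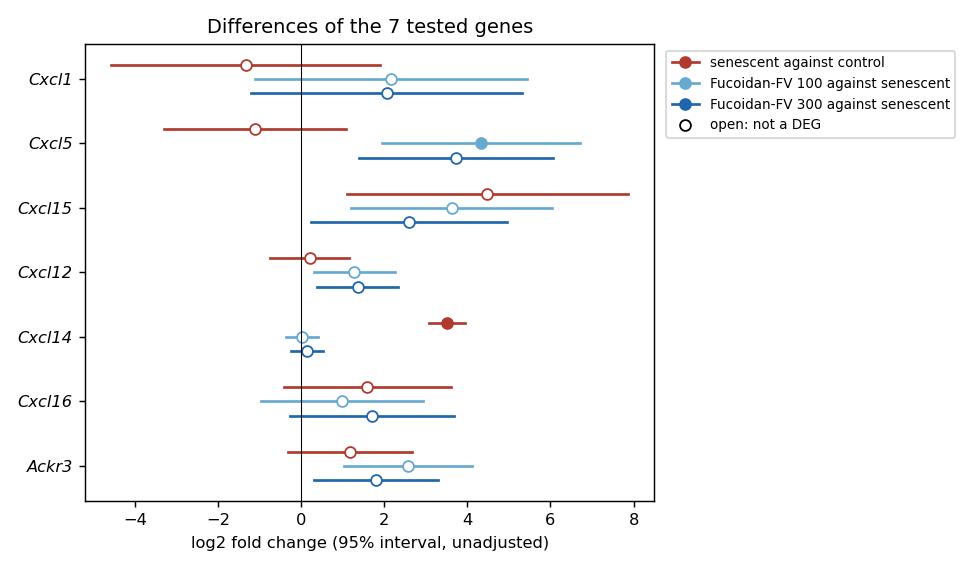
Log2 fold changes of the 7 tested genes with unadjusted 95% intervals for SnCs against control MEFs and for each Fucoidan-FV dose against SnCs. Filled points are DEGs. Cxcl14 in SnCs and Cxcl5 at 100 μg/mL are filled, and the intervals of Cxcl5, Cxcl12, Cxcl15 and Ackr3 at both doses lie above 0. Cxcl1 and Cxcl15 entered the test through the Fucoidan-FV samples, so that their direction at both doses is no result.

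Cxcl14 was the member with the clearest difference between SnCs and control MEFs. It encodes a chemokine that is conserved among vertebrates and known for attracting myeloid cells. Its level was 10.1, 12 and 9.80 CPM in control mice 6, 4 and 5, and 104, 134 and 126 CPM in SnCs of the same mice. Every senescent value was above every control value, by 10.3-, 11.2- and 12.8-fold within mice 6, 4 and 5. The log2 fold change was 3.51 (SE 0.20, adjusted p = 1.87e-06), and it stayed between 3.31 and 3.62 over all 20 alternative analyses, each of which called it a DEG. Fucoidan-FV left it near this level, at 123, 124 and 119 CPM with 100 μg/mL and 112, 161 and 128 CPM with 300 μg/mL in mice 6, 4 and 5. The groups overlapped, and the difference from untreated SnCs was 0.01 (95% interval -0.37 to 0.40) at 100 μg/mL and 0.15 (-0.24 to 0.53) at 300 μg/mL on the log2 scale.

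Cxcl12, which retains haematopoietic cells in their niche and is the most abundant of these chemokines here, did not change detectably with senescence. Control mice 6, 4 and 5 had 335, 237 and 304 CPM and SnCs had 428, 248 and 336 CPM, so the groups overlapped (log2 fold change 0.21, SE 0.44, adjusted p = 0.838). With 100 μg/mL Fucoidan-FV the levels were 1508, 519 and 424 CPM, and with 300 μg/mL 1336, 766 and 491 CPM. Mouse 6 was highest at both doses, and each mouse was above its own untreated SnCs, by 3.53-, 2.10- and 1.26-fold in mice 6, 4 and 5 at 100 μg/mL and by 3.13-, 3.09- and 1.46-fold at 300 μg/mL. The 300 μg/mL values did not overlap those of untreated SnCs, whereas at 100 μg/mL mouse 5 lay just under the highest senescent value. Neither difference passed the test. The log2 fold change was 1.28 at 100 μg/mL (SE 0.45, adjusted p = 0.131) and 1.36 at 300 μg/mL (SE 0.45, adjusted p = 0.151). DESeq2 gave adjusted p values of 0.0412 and 0.0454, and without mouse 6 of the treated group the log2 values were 0.48 and 0.90. Over the alternatives the adjusted p ran from 4.75e-05 to 0.483 at 100 μg/mL and from 2.83e-05 to 0.488 at 300 μg/mL, where the lowest came from the analysis with no filter beyond 1 count.

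The estimated transcript length of Cxcl12 was compared between the groups too. RSEM reports for each gene the length of its transcripts weighted by their estimated abundance, and the 4 listed Cxcl12 transcripts are 5669, 3171, 2894 and 1878 nt long. The weighted length was 2951, 2885, 3016 and 2738 nt in control libraries 6, 4, 5(1) and 5(2), and 2633, 2500 and 2513 nt in SnCs of mice 6, 4 and 5. It was 2497, 2340 and 2353 nt with 100 μg/mL and 2476, 2481 and 2422 nt with 300 μg/mL Fucoidan-FV. All SnCs were below all controls, with means of 2549 ± 73.1 nt and 2905 ± 40.8 nt (SD, n = 3), and both Fucoidan-FV groups were below all untreated SnCs, with 2397 ± 86.9 nt and 2460 ± 32.7 nt. Of 10765 genes with several listed transcripts and a mean of at least 50 counts, 3.25% were shorter in SnCs than in controls without overlap, 4.02% with 100 μg/mL than in SnCs and 3.86% with 300 μg/mL than in SnCs. Each of these 3 differences had an exact permutation p of 0.1 (two-sided), the smallest that 3 mice against 3 allow, so that none could pass 0.05, and the doses overlapped. Which transcript moved was not tested, and RSEM's division of reads among transcripts enters these lengths.

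**Figure D3:**
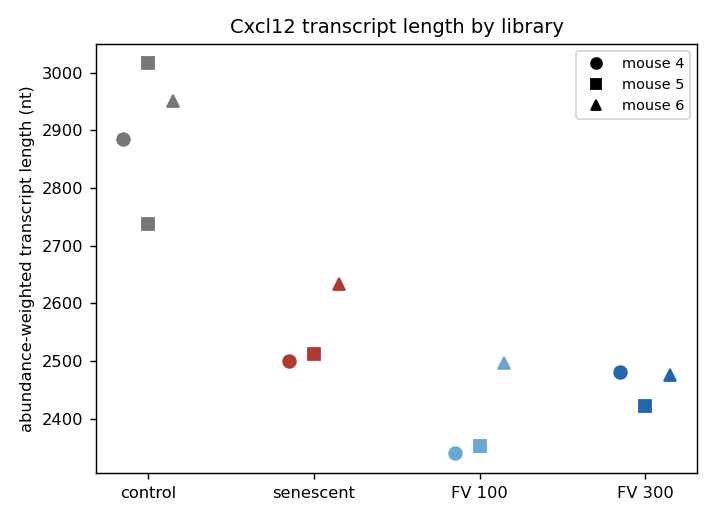
Abundance-weighted transcript length of Cxcl12 in nucleotides (nt) in each of the 13 libraries, with the symbol giving the mouse. Control libraries lie at 2738 nt and above, SnCs between 2500 and 2633 nt, and all Fucoidan-FV libraries at 2497 nt or below; the axis does not start at 0.

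Ackr3 encodes a receptor that binds Cxcl12 and removes it from the surroundings without G protein signaling. Its level was 0.376, 4.04 and 2.94 CPM in control mice 6, 4 and 5, and 5.91, 8.69 and 2.11 CPM in SnCs. It was 23.1, 41.7 and 35.1 CPM with 100 μg/mL Fucoidan-FV and 28.9, 7.17 and 22.5 CPM with 300 μg/mL. All 3 values at 100 μg/mL lay above all senescent values, while mouse 4 at 300 μg/mL lay within them. The log2 fold change against untreated SnCs was 2.57 (SE 0.71, adjusted p = 0.0593) at 100 μg/mL and 1.80 (SE 0.69, adjusted p = 0.222) at 300 μg/mL, so neither passed the test. Over the alternatives the adjusted p ran from 2.19e-06 to 0.19 at 100 μg/mL and from 0.00263 to 0.527 at 300 μg/mL. Without 1 mouse, Ackr3 was called in 0 of 6 analyses at each dose. Of the 13 other alternatives, 6 called it at 100 μg/mL and 3 at 300 μg/mL.

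Libraries with low Ackr3 within their group were those low on single-transcript genes. The pair of libraries from control mouse 5 held 24 and 126 Ackr3 counts, and genes with a like share of such sequence deviated by -1.18 and 0.812 (log2) in them. The alternatives in the rest of this paragraph were chosen after the data were seen. With an offset per gene and library for this share, the log2 fold change was 1.74 (adjusted p = 0.013) at 100 μg/mL and 1.69 (adjusted p = 0.0218) at 300 μg/mL, which made Ackr3 a DEG at both doses. Adding a mouse block to these offsets gave 1.73 (adjusted p = 0.0214) and 1.68 (adjusted p = 0.0324), and leaving out the 4 low libraries gave 2.29 (adjusted p = 0.0192) and 1.84 (adjusted p = 0.0553). The offset also made Ackr3 a DEG in SnCs against control MEFs, at 1.29 (adjusted p = 0.0293) in place of 1.18 (adjusted p = 0.326), whereas leaving out the 4 low libraries gave 0.64 (adjusted p = 0.322).

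**Figure D4:**
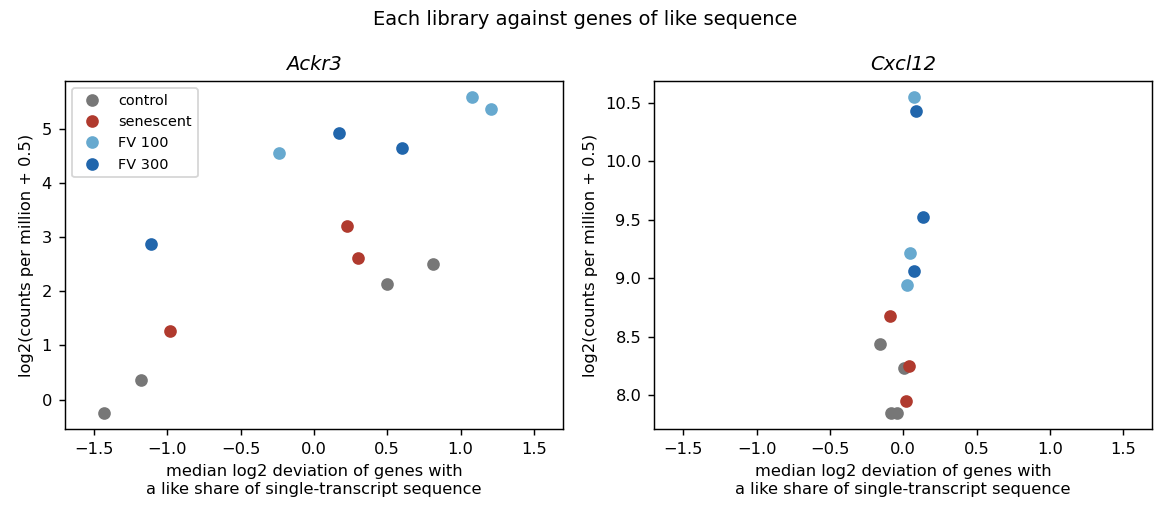
Log2(CPM + 0.5), here scaled by the library total without TMM factors, of Ackr3 and Cxcl12 in each of the 13 libraries against the median log2 deviation of genes with a like share of single-transcript sequence. For Ackr3 the 4 libraries at -0.984 or below on the horizontal axis hold the lowest value of their group or mouse, whereas for Cxcl12 all libraries lie close to 0 on that axis.

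In GRCm39 the homeostatic and membrane-bound members lie apart, Cxcl12 at chr6:117144945-117158328 (+), Cxcl14 at chr13:56436352-56444603 (-), Cxcl16 at chr11:70344517-70352620 (-) and Ackr3 at chr1:90131689-90144473 (+), and Cxcl10 lies at chr5:92494497-92496748 (-). The members Cxcl5, Cxcl15, Cxcl1 and Cxcl2 lie close together on chromosome 5, within 147 kb (GRCm39 chr5:90907186-91053797), with Ppbp, Pf4 and Cxcl3 among them. Against untreated SnCs, Cxcl5 was the tested member with the largest log2 fold change at both doses. Its level was 0.094, 5.82 and 1.24 CPM in control mice 6, 4 and 5 and 0.306, 0.991 and 2.03 CPM in SnCs, which overlapped (log2 fold change -1.11, SE 1.02, adjusted p = 0.564, and 0.60 without control mouse 4). It rose to 42.2, 16.5 and 7.27 CPM with 100 μg/mL. At 300 μg/mL it stood at 24.3, 13.1 and 6.12 CPM. No treated value overlapped those of untreated SnCs, and the folds within mice 6, 4 and 5 spread widely, over 138-, 16.6- and 3.59-fold at 100 μg/mL and 79.3-, 13.2- and 3.02-fold at 300 μg/mL.

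The log2 fold change of Cxcl5 was 4.32 (SE 1.11, adjusted p = 0.0471) at 100 μg/mL and 3.72 (SE 1.08, adjusted p = 0.104) at 300 μg/mL. The call at 100 μg/mL was close to the threshold. It was lost with the mouse as a block (4.06, adjusted p = 0.104) and in each of the 6 analyses without 1 mouse of either group (3.43 to 5.13, adjusted p 0.0683 to 0.151). It was kept in 7 of the 13 alternatives that left out no single mouse, and the direction was positive in all 19. Against control MEFs the log2 fold change was 3.21 (SE 1.04, adjusted p = 0.0357) at 100 μg/mL, which became 3.29 (adjusted p = 0.068) with the block, and 2.61 (SE 1.02, adjusted p = 0.0797) at 300 μg/mL.

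Cxcl15, known as a lung chemokine in mice, was not counted in any control library. SnCs of mice 6, 4 and 5 had 4, 3 and 1 counts, SnCs with 100 μg/mL Fucoidan-FV had 26, 58 and 23, and those with 300 μg/mL had 24, 2 and 19. The values at 100 μg/mL lay above all senescent ones and mouse 4 at 300 μg/mL lay among them, a library that is low on single-transcript genes. Against untreated SnCs the log2 fold change was 3.63 at 100 μg/mL (SE 1.12, adjusted p = 0.0971) and 2.59 at 300 μg/mL (SE 1.09, adjusted p = 0.282). Without the 4 low libraries these were 3.42 (adjusted p = 0.0761) and 2.83 (adjusted p = 0.177). Against control MEFs the level was at least 39.1-fold higher with 100 μg/mL and at least 18.4-fold higher with 300 μg/mL, taking 3 counts over the control group as the floor. As Cxcl15 entered the test through the Fucoidan-FV samples, its differences from the other groups are a description, although they met the DEG threshold against control MEFs, also without the 4 low libraries.

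Cxcl1 and Cxcl2 had few counts. Cxcl1, a neutrophil attractant and a SASP factor much used as a marker, had 0, 19 and 20 counts in control mice 6, 4 and 5, 1, 12 and 1 in SnCs, 19, 25 and 19 with 100 μg/mL and 39, 10 and 0 with 300 μg/mL. The groups overlapped between SnCs and control MEFs (log2 fold change -1.33, SE 1.5, adjusted p = 0.653), and the differences from SnCs were 2.17 at 100 μg/mL (SE 1.52, adjusted p = 0.472) and 2.06 at 300 μg/mL (SE 1.52, adjusted p = 0.586). Cxcl2 had 1 count over the control group, 0 over the SnCs, 4 with 100 μg/mL and 2 with 300 μg/mL, and no difference was detectable at this depth. Of its sequence, 5.84% of 50-base stretches were shared with other genes, foremost Cxcl3. Ppbp, with 4 to 107 counts per mouse, and Cxcl3, with 0 to 28, were the other tested ligands of the family. They were no DEGs in any comparison by edgeR or DESeq2, and neither had an unadjusted p under 0.05. Their log2 fold changes against SnCs were 1.44 and 3.0 at 100 μg/mL. Ppbp consists wholly of sequence found in a single transcript, and its value fell as low as 0.57 over the alternatives. Cxcl3, like Cxcl1, needed the Fucoidan-FV samples to pass the filter, so that its direction is no result. Cxcl11 and Cxcl13 had no count in the 4 groups.

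Cxcl10 had 2 counts over the control group, 7 over the SnCs, 20 with 100 μg/mL and 25 with 300 μg/mL. Of the 20 counts at 100 μg/mL, 17 came from mouse 6, and of the 25 at 300 μg/mL, 20 came from mouse 4. No test was made for it. Beside it, 14 of 16 interferon-stimulated genes were tested, of which 2 were DEGs higher in SnCs than in control MEFs, Irf7 (2.19, adjusted p = 0.022) and Ifit3 (3.45, adjusted p = 0.0153), against 4.47% of all tested genes. In SnCs 9 of the 14 had an unadjusted p under 0.05, for which the share over all tested genes was not computed. DESeq2 called 5 of the 14 and 1816 genes in all, where edgeR called 1266. Without 1 mouse, Irf7 was called in 2 of 6 analyses and Ifit3 in 5 of 6. Ifit3 had 13 counts over the control group and consists wholly of sequence found in a single transcript. Its log2 fold change ran from 2.63 to 4.50 over the 13 alternatives that left out no single mouse, 10 of which called it. Of the 14, none was a DEG by edgeR or DESeq2 with either Fucoidan-FV dose against SnCs, where 0 had an unadjusted p under 0.05 at 100 μg/mL and 1 at 300 μg/mL. By edgeR, 2.69% and 1.64% of all tested genes were DEGs at these doses. Among 13 tested NF-κB-inducible and mRNA decay genes, 1 was a DEG in SnCs, Icam1, an adhesion molecule for leukocytes (5.82, adjusted p = 0.000204). Of all tested genes, 8.42% were DEGs in SnCs in either direction and 4.47% were higher. With 100 μg/mL, where 1.1% of all tested genes were DEGs in the higher direction, 2 of the 13 were DEGs, both higher. They were Zfp36l1, which directs the decay of cytokine mRNAs (1.74, adjusted p = 0.0206), and Vcam1 (1.04, adjusted p = 0.0463, and 0.0561 with the mouse as a block), which was 0.58 (adjusted p = 0.414) with offsets for single-transcript sequence. With 300 μg/mL it was Zfp36l1 alone (1.80, adjusted p = 0.0261, and 0.0555 with the block), against 0.752% of all tested genes in the higher direction. Without 1 mouse, Zfp36l1 was called in 3 of 6 analyses at 100 μg/mL and 2 of 6 at 300 μg/mL, Vcam1 in 1 of 6, and Icam1 in SnCs in 6 of 6.

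Cxcl16 and its receptor Cxcr6 differed in opposite directions under Fucoidan-FV, although only Cxcr6 passed the test. Cxcl16 had 0, 1.10 and 1.3 CPM in control mice 6, 4 and 5, 4.89, 1.98 and 0.560 CPM in SnCs, 7.09, 4.26 and 3.41 CPM with 100 μg/mL and 6.30, 12.8 and 5.33 CPM with 300 μg/mL. All 3 mice were higher with either dose than without, and the 300 μg/mL values lay above all senescent ones. Against untreated SnCs the log2 fold change was 0.98 at 100 μg/mL (SE 0.90, adjusted p = 0.603, and 2.04 without senescent mouse 6) and 1.71 at 300 μg/mL (SE 0.91, adjusted p = 0.413). Against control MEFs, 300 μg/mL gave 3.30 (SE 0.98, adjusted p = 0.0256), a DEG that became 3.12 (adjusted p = 0.0589) with the mouse as a block. Med11, on the opposite strand, shares 66.8% of the exonic bases of Cxcl16 and had 108 to 417 counts per library. Whether reads were counted by strand is not given in the sources used here, and the part of Med11 reads in the Cxcl16 values was not tested. Adam10 and Adam17, the proteases that shed Cxcl16 from the membrane, were no DEGs, with log2 fold changes between -0.18 and 0.52 in SnCs and at either dose against SnCs.

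Cxcr6 is best known from T cells and natural killer cells. Its level was 3.81, 7.61 and 4.51 CPM in control mice 6, 4 and 5, 11.2, 27.6 and 20.7 CPM in SnCs, 1.04, 2.16 and 2.92 CPM with 100 μg/mL and 1.08, 1.40 and 1.78 CPM with 300 μg/mL. SnCs lay above all controls and all Fucoidan-FV samples lay below all controls. It was a DEG in SnCs (1.90, SE 0.47, adjusted p = 0.0181), at 100 μg/mL (-3.28, SE 0.50, adjusted p = 0.00448) and at 300 μg/mL (-3.80, SE 0.51, adjusted p = 0.00355). The call in SnCs was lost without control mouse 5 or 6, without senescent mouse 4 or 5, and without the 4 low libraries, with adjusted p values of 0.0541 to 0.112. Against SnCs at 100 μg/mL it was called in all 20 alternatives and at 300 μg/mL in 19 of 20, where leaving out the 4 low libraries gave -3.72 (adjusted p = 0.0527). Cxcr6 lies within Fyco1 on the opposite strand, with no exonic base shared. Fyco1 had 1126 to 3876 counts per library, and the part of its intronic reads in the Cxcr6 values was not tested. The macrophage marker sum was 0.564 to 4.73 CPM in control MEFs, 3.23 to 16.9 CPM in SnCs, 6.64 to 15.3 CPM with 100 μg/mL and 3.26 to 11.4 CPM with 300 μg/mL, and T cell markers were not examined. All 7 tested macrophage markers had a positive log2 fold change in SnCs against control MEFs (median 2.09). None of these markers was a DEG by edgeR or DESeq2, against 8.42% of all tested genes by edgeR, and 2 had an unadjusted p under 0.05. Their part in the Cxcr6 values was not tested.

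**Figure D5:**
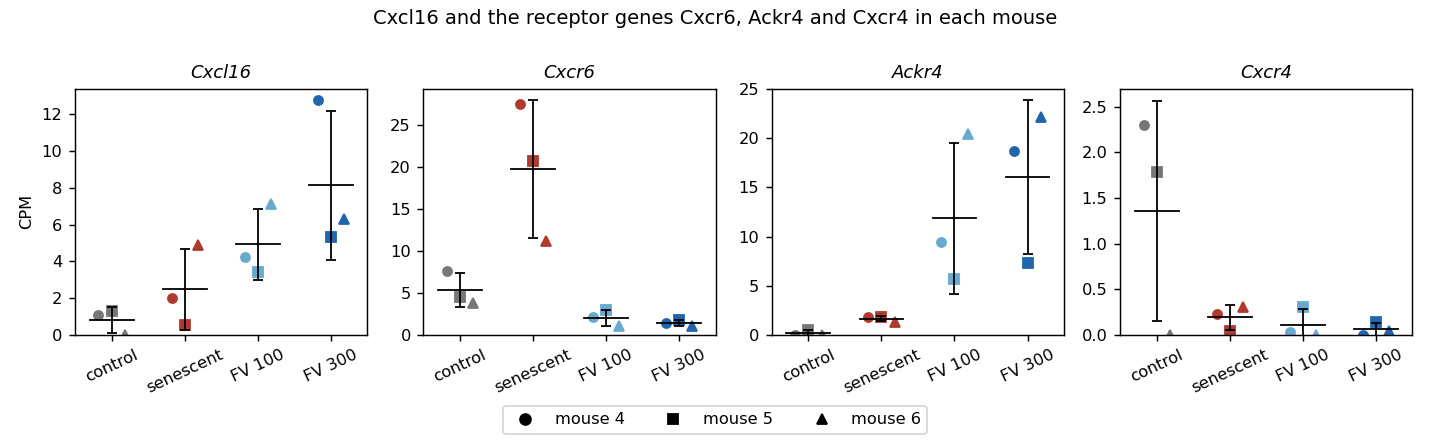
Normalised read counts (CPM, linear axis from 0 per panel) of Cxcl16, Cxcr6, Ackr4 and Cxcr4 in each mouse, with the mean and SD of 3 mice. Cxcr6 is highest in SnCs and lowest with Fucoidan-FV, Cxcl16 and Ackr4 are highest with Fucoidan-FV, and Cxcr4 is near 0 in all SnCs.

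Of the 9 other chemokine receptor genes, only Cxcr6 and Ackr4 passed the filter. Cxcr4, the signaling receptor of Cxcl12, had 0, 54, 62 and 29 counts in control libraries 6, 4, 5(1) and 5(2), 9, 7 and 1 in SnCs of mice 6, 4 and 5, 0, 1 and 8 with 100 μg/mL and 1, 0 and 4 with 300 μg/mL, and was not tested. Cxcr2, the receptor best known for the ELR chemokines, had 6 counts over the SnCs, 5 with 100 μg/mL and none in the other groups. Ackr4, a scavenger known chiefly for CC chemokines, had 0, 0 and 0.510 CPM in control mice 6, 4 and 5, 1.32, 1.82 and 1.85 CPM in SnCs, 20.4, 9.45 and 5.68 CPM with 100 μg/mL and 22.2, 18.7 and 7.29 CPM with 300 μg/mL. Controls lay below all SnCs, and SnCs lay below all samples of either dose. The log2 fold change was 2.95 (adjusted p = 0.0509) in SnCs and 2.83 (adjusted p = 0.0709) and 3.27 (adjusted p = 0.0672) at the doses against SnCs, none of which passed, and 5.78 (adjusted p = 0.000833) and 6.22 (adjusted p = 0.000605) against control MEFs, which did. Of the 26 control counts of Ackr4, 25 came from library 5(1), so that the fitted folds against control MEFs rest on that library. Without control mouse 5 all control values were 0, and the difference of SnCs passed the test (adjusted p = 0.00297). Acad11, on the opposite strand, shares 8.39% of the exonic bases of Ackr4 and had 337 to 1495 counts per library. The part of Acad11 reads in the Ackr4 values was not tested.

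Downstream of the receptors, 14 of 15 genes for G protein subunits, receptor kinases, arrestins and RGS proteins were tested. None was a DEG in SnCs by edgeR, against 8.42% of all tested genes, while 3 had an unadjusted p under 0.05 and DESeq2 called 1. Rgs4 and Rgs5, which shorten G protein signaling, were higher with 100 μg/mL Fucoidan-FV (1.49, adjusted p = 0.0437, and 3.25, adjusted p = 0.0283), 2 of 14 against 2.69% of all tested genes. With 300 μg/mL Rgs4 was higher (1.89, adjusted p = 0.0238) and Rgs16 was lower (-3.14, adjusted p = 0.0428, and 0.0566 with the mouse as a block), 2 of 14 against 1.64% of all tested genes. These calls were not stable to leaving out 1 mouse, where Rgs4 was called in 1 of 6 analyses at 100 μg/mL and 3 of 6 at 300 μg/mL, Rgs5 in 2 of 6 and Rgs16 in 0 of 6. Of 7 tested proteases that trim or shed chemokines, Mmp9 alone was a DEG in SnCs, where it was lower (-3.22, adjusted p = 0.0161, and called in 4 of 6 analyses without 1 mouse), and none was a DEG at either dose against SnCs by edgeR or DESeq2, with 1 at an unadjusted p under 0.05 at each dose. By edgeR, 8.42% of all tested genes were DEGs in SnCs, 2.69% with 100 μg/mL and 1.64% with 300 μg/mL.

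Measured against control MEFs, 5 of the 7 tested members met the DEG threshold at each dose, all higher, where 10.3% of all tested genes were DEGs higher with 100 μg/mL and 9.87% with 300 μg/mL (19.7% and 18% in either direction). Without Cxcl1 and Cxcl15, whose entry into the test rested on the Fucoidan-FV samples, 4 of 5 were DEGs at each dose. Values of these 5 and of Cxcl15 lay above all controls at each dose, as did 24.2% of all tested genes with 100 μg/mL and 22.2% with 300 μg/mL. With 100 μg/mL the 5 that met the threshold were Cxcl5, Cxcl12 (1.48, SE 0.45, adjusted p = 0.0267), Cxcl14 (3.53, SE 0.20, adjusted p = 5.99e-07), Cxcl15 and Ackr3 (3.75, SE 0.75, adjusted p = 0.00259). With 300 μg/mL Cxcl16 stood in place of Cxcl5, beside Cxcl12 (1.57, SE 0.45, adjusted p = 0.0224), Cxcl14 (3.66, SE 0.20, adjusted p = 6.52e-07), Cxcl15 and Ackr3 (2.98, SE 0.73, adjusted p = 0.00934). Without the 4 low libraries Ackr3 was at 2.93 (adjusted p = 0.000831) with 100 μg/mL and 2.48 (adjusted p = 0.00266) with 300 μg/mL. The calls of Cxcl12 were lost without some single mice. At 100 μg/mL the value was 0.69 (adjusted p = 0.18) without treated mouse 6 and 1.44 (adjusted p = 0.058) without control mouse 4, and at 300 μg/mL it was 1.11 (adjusted p = 0.118) and 1.47 (adjusted p = 0.0588). The call of Cxcl16 was lost without control mouse 4 (3.59, adjusted p = 0.0614) or treated mouse 4 (2.82, adjusted p = 0.0777). The call of Cxcl5 was lost without control mouse 5 or 6 or treated mouse 4 or 6 (2.32 to 3.38, adjusted p 0.0555 to 0.14).

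Between the doses, none of the 7 was a DEG by edgeR or DESeq2, none had an unadjusted p under 0.05, and 0.00665% of all tested genes (1 gene, lower) were DEGs, with 0% higher. For none of the 7 did the doses differ without overlap, as they did for 7.54% of all tested genes. The log2 differences of 300 against 100 μg/mL ran from -1.03 for Cxcl15 to 0.72 for Cxcl16. For Cxcl12 the difference was 0.08 (95% interval -0.87 to 1.03), for Cxcl14 0.13 (-0.25 to 0.52), for Cxcl5 -0.60 (-2.65 to 1.44) and for Ackr3 -0.77 (-2.22 to 0.68), so that differences of more than 2-fold in either direction lie within the interval of Cxcl5, a more than 2-fold lower level lies within that of Ackr3, and neither lies within that of Cxcl14.

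The genes whose profile over the 12 samples was most like that of a member were found by the root-mean-square difference of centred log2(CPM + 0.5) with unit variance, as a description. For Cxcl5 they were Hgf (0.327), a growth factor for epithelial cells, Ptn (0.357) and Artn (0.360). For Cxcl12 they included Nek6 (0.288) and Col14a1 (0.290). Cxcl14 was nearest to Rapgef3 (0.140), Atp9a (0.141) and Ephx1 (0.150), Cxcl16 to Gm30938 (0.257), Stard10 (0.292) and Ech1 (0.301), and Cxcl1 to Thbs4 (0.546), Parp14 (0.612) and Osr1 (0.617). Ackr3 was nearest to Sfrp1 (0.114), Gpr107 (0.146) and Arsi (0.151), and Cxcl15 to Shisa2 (0.184), Egfl6 (0.243) and Clec11a (0.254), and the samples of these 2 members share the deviation of single-transcript genes.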

How the data were processed

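RNA of MEFs was sequenced in 13 libraries of 4 groups with 3 mice each, made with a stranded total RNA kit. Per the labels' processing notes the authors used FastQC 0.12.1, Trimmomatic, STAR 2.7.11b and RSEM 1.3.1 with GRCm39. They deposited unnormalized expected counts per gene, which split a read among the transcripts it matches, and TPM values, which the authors' RSEM run scales for transcript length and depth. The deposited abundance-weighted lengths were used for Cxcl12. The series table of expected counts equalled the single files (largest difference 0). Of 57010 genes listed, 56310 were matched to the annotation.

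Expected counts were rounded, and libraries 5(1) and 5(2) were summed. Genes were kept by filterByExpr (minimum count 10, total 15), which left 15034. The test was edgeR's quasi-likelihood test (version 4.0.16, R 4.3.3, TMM factors, 1 fit over 4 groups) and Benjamini-Hochberg adjustment over all genes. DEGs were called at an adjusted p of 0.05 and a 2-fold difference (1 on the log2 scale). Shares of DEGs over all tested genes are of edgeR's calls, and no such share was computed for unadjusted p values. The SE is the log2 fold change divided by the root of F. Script steps were tested on simulated data. Totals of 22782536 to 31278750 counts set the precision, and floors (3 counts) cover counting error only.

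The labels give the mouse of each sample, so equal numbers were taken as the same animal. As a check of the pairing, deviations from group means were correlated for 18 pairs of same-numbered samples (median r -0.037, lowest -0.33, highest 0.60, 8 pairs over 0.1). This check did not show the pairing over the 18 pairs, so the folds within mice rest on the labels. The study's methods call the replicates of a group independent biological ones. The members, lists and tests were chosen with earlier results of these data known. Genes named are the 9 members, list genes that are DEGs or that encode a receptor, ligand or protease of a member, and 3 nearest profiles per tested member, of which 1 is not reported here. Alternatives were DESeq2 1.42.0, RLE factors, other filters, only the 2 groups compared, either handling of mouse 5, the mouse as a block, offsets for transcript number and length, and leaving out each mouse. Offsets for single-transcript sequence and leaving out the 4 low libraries were chosen after the data were seen. Promoter sequences are from RefSeq.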

Additional observations from a re-analysis of the deposited data

How the results depend on the processing

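None of 2558 alternative values of single genes turned a called direction, 138 lost a call and 71 gained one. The mouse as a replicate block gave 1137, 321, 207, 0, 2819 and 2546 DEGs in the 6 comparisons, against 1266, 405, 246, 1, 2955 and 2704, and 0 members in place of 1 with 100 μg/mL against SnCs. Among members and receptors it ended only the calls of Cxcl5 (100 μg/mL against SnCs and against control MEFs) and Cxcl16 (300 μg/mL against control MEFs).

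For SnCs against control MEFs, a fit of only the 2 groups compared gave 699 DEGs (249 higher, 450 lower, against 672 and 594), and offsets for single-transcript sequence called 2 members with and without the block. With 100 μg/mL against SnCs (405 DEGs, 165 higher and 240 lower), DESeq2 gave 826 (522 higher, 304 lower), no filter 800 (534 and 266), only the 2 groups 168 (93 and 75), offsets for transcript number and length 616 (170 and 446), and single-transcript offsets 723 (190 and 533) or 652 with the block (159 and 493). Members called there were 4 with DESeq2, 3 with no filter, 2 with single-transcript offsets, 2 without the 4 low libraries, and 0 with RLE factors, 10 counts in every sample, library 5(2) alone, or transcript offsets with the block. With 300 μg/mL against SnCs (246 DEGs, 113 higher and 133 lower), DESeq2 gave 641 (360 and 281), no filter 580 (328 and 252), only the 2 groups 101 (56 and 45), single-transcript offsets 403 (144 and 259), and leaving out the 4 low libraries 118 (67 and 51). Members called there were 2 with DESeq2, 3 with no filter, and 1 with single-transcript offsets with or without the block. Between the doses, 2 DEGs were found with no filter and 0 with 10 counts in every sample, only the 2 groups, library 5(2) alone, transcript offsets with or without the block, single-transcript offsets with the block, or without the 4 low libraries. Against control MEFs, 2 members were called at either dose with 10 counts in every sample, and 3 with 100 μg/mL under transcript offsets with the block. In the filter of 10 counts in every sample, fewer members were tested, and the cause of the other shifts was not tested.

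Leaving out 1 mouse at a time gave 911 to 1456, 136 to 365, 46 to 220, 0 to 0, 2262 to 2700 and 2182 to 2656 DEGs in the 6 comparisons. Members called were then 1 to 1 in SnCs, 0 to 0 at either dose against SnCs and between the doses, 3 to 5 with 100 μg/mL and 4 to 5 with 300 μg/mL against control MEFs. Member counts here include Cxcl1 and Cxcl15. Counts of 0 to 58 per library limit what can be said of Cxcl1, Cxcl2, Cxcl10 and Cxcl15.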
